A study of Homo sapiens with 6 samples.

Results

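Epithelial junction and basement anchoring genes were followed in RNA-seq libraries of PC-3 cells depleted of CdGAP. The 46 genes were chosen by symbol from a list of tight junction, desmosome, adherens junction, gap junction, hemidesmosome and epidermal genes, and all 46 were found among the 64253 genes counted in each library. Of these, 39 had enough reads to be tested. PC-3 is a human line, long established from a prostate carcinoma, and CdGAP is a GTPase-activating protein for the small GTPases Rac1 and Cdc42, encoded by ARHGAP31. Total RNA was extracted, and libraries prepared from it were sequenced. There were 3 of PC-3 cells carrying a short hairpin RNA against CdGAP (shCdGAP) and 3 of PC-3 cells carrying a control hairpin (shCon). The methods describe infection with lentiviruses, selection of the CdGAP-depleted cells with puromycin and their growth from single cells, with no cloning step stated for the control cells and the sequenced clone not named. An effect of CdGAP depletion and the particular features of a clone therefore cannot be told apart here. The gene list was drawn up with results of these data known, so changes of its members are given as a description, with no p-value.

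Epithelial cells are joined by several kinds of junction. Tight junctions seal the space between neighbouring cells through claudins and occludin, which are tied to actin by the ZO proteins. Adherens junctions and nectins hold cells together through catenins and afadin, and desmosomes do so through desmogleins and desmocollins, which plakoglobin, plakophilins and desmoplakin link to keratin filaments. Gap junctions are channels of connexins that let small molecules pass between cells. Hemidesmosomes anchor keratin filaments to the basement membrane below the cell. Transcription factors of the grainyhead-like and OVOL families keep many of these genes active in epithelia.

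To show the DNA at the start of the genes that changed most, the 250 bases before an annotated transcription start are printed for the 6 of the 8 genes called changed that are in the RefSeq promoter table (GRCh38.p14). The start nearest to the 5′ end of the gene in the count files was taken. Each is read 5′ to 3′ on the strand of the gene, and capitals mark matches, on either strand, to the E-box CAGGTG, the grainyhead core CCGGTT, the AP-1 motif TGANTCA or the GC box GGGCGG.
LAD1 chr1:201399325-201399574, minus strand: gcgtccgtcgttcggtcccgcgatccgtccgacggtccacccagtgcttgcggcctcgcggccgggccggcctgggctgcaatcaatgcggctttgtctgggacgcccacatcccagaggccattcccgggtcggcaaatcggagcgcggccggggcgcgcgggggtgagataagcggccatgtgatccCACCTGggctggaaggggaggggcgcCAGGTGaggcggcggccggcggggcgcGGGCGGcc
DMKN chr19:35513650-35513899, minus strand: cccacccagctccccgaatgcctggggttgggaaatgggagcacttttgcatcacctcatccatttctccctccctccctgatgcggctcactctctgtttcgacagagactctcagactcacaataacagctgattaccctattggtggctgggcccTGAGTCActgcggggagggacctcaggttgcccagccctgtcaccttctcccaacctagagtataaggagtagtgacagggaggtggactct
GJB2 chr13:20192939-20193188, minus strand: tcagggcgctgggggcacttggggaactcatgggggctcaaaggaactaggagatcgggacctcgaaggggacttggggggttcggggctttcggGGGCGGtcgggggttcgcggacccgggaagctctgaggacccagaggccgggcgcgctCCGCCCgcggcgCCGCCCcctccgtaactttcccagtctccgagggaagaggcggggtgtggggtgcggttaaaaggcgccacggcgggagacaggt
CLDN11 chr3:170418618-170418867, plus strand: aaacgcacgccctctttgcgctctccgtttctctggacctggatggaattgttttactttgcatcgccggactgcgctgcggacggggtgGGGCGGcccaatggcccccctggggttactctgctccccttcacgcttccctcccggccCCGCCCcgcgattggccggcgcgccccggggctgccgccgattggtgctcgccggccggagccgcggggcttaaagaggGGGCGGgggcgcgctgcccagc
CLDN1 chr3:190322447-190322696, minus strand: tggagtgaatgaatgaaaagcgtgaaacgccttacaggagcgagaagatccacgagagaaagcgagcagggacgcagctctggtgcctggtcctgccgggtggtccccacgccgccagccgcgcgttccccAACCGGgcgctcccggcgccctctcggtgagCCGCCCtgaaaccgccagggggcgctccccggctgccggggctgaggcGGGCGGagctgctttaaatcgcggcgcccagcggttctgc
TJP3 chr19:3708134-3708383, plus strand: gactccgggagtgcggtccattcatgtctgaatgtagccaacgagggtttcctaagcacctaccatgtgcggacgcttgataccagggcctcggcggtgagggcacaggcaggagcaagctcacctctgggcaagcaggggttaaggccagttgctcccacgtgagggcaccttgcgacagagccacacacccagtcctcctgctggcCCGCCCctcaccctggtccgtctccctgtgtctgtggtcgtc
The LAD1 window held 2 E-boxes and 1 GC box, and the DMKN window held 1 AP-1 match. The GJB2 and CLDN11 windows each held 3 GC boxes, the CLDN1 window held 2 GC boxes and 1 grainyhead core, and the TJP3 window held 1 GC box. Across the 50 windows of the 32 listed genes in the table, 14 held an E-box (28.0%), 7 a grainyhead core (14.0%), 5 an AP-1 match and 34 a GC box (68.0%). Among all 35116 windows of the same length the shares were 17.5% for the E-box, 5.99% for the grainyhead core, 6.57% for AP-1 and 42.6% for the GC box. The windows of the listed genes were also richer in G and C, with a median of 67.2% against 58%. A match describes letters and does not show that a factor binds there. EPCAM and ST14 were not in the table.

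ARHGAP31, the gene targeted by the hairpin, had 26.4, 27.1 and 26.9 CPM, which are counts scaled to a common library size, in shCdGAP replicates 1, 2 and 3 and 58.9, 60.6 and 58.2 CPM in shCon replicates 1, 2 and 3. It fell by 1.14 on the log2 scale (SE 0.0409). Libraries held 33182796 to 43154039 counted reads, so 3 reads corresponded to 0.0689 to 0.0908 CPM. The summed level of 5 epithelial markers was 972 to 1226 CPM in shCdGAP and 741 to 762 CPM in shCon. Of the 5, 2 passed higher, KRT19 and EPCAM, the latter itself a listed gene. KRT8, KRT18 and CDH1 did not pass, with log2 fold changes of 0.06, 0.09 and -0.72. For CDH1 all shCdGAP libraries were below all shCon libraries. With shCdGAP replicate 2 left out, CDH1 passed lower, at a log2 fold change of -1.09. The summed level of 6 fibroblast markers was 344 to 352 CPM in shCdGAP and 302 to 308 CPM in shCon, with 4 of 5 tested passing higher. Most of each sum was COL1A2, at 276 to 282 CPM in shCdGAP and 283 to 289 CPM in shCon. COL1A2 did not pass, with a log2 fold change of -0.04. Those passing were COL1A1, COL3A1, LUM and PDGFRB, with LUM and PDGFRB at no more than 2.09 CPM in any library. The 5 leukocyte markers summed to at most 0.367 CPM in any library, with CD3E at no read. The 4 endothelial markers summed to 5.38 to 12.7 CPM in any library, with VWF at no more than 1 read. PECAM1 had 93 to 261 reads in shCdGAP libraries and 181 to 236 in shCon, and KDR 118 to 291 and 170 to 194. Neither passed, with log2 fold changes of -0.57 and -0.13. Without shCdGAP replicate 2 these were -1.14 and -0.60, and both passed lower. Of 5 prostate luminal markers KLK3 and KLK2 had no read, and the sum was 1.16 to 2.53 CPM in shCdGAP and 0.426 to 0.484 CPM in shCon. The part of these markers in the results was not tested.

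Among the 39 tested genes, 6 were called higher in shCdGAP cells (CLDN11, EPCAM, GJB2, LAD1, ST14 and DMKN) and 2 were called lower (CLDN1 and TJP3). A call required an adjusted p under 0.01 in edgeR's quasi-likelihood test over all 16439 genes tested and a log2 fold change beyond 1 in either direction. Over all tested genes 8.56% were called higher and 4.19% lower, printed here as background from which nothing is read, since the list was chosen with this contrast known. Without the fold limit 10 listed genes passed higher, 6 passed lower and 23 did not pass, beside 24.1% and 22.0% of all tested genes passing higher and lower. The 3 libraries of each group did not overlap in 14 genes that were higher and 12 that were lower in shCdGAP, and they overlapped in 13. The share of all genes without overlap was 34.4% higher and 32.7% lower. The median log2 fold change of the listed genes was 0.08, against 0.01 over all genes. Of the 39, 25 stayed within 0.5 in either direction, as did 67.4% of all genes. In a bulk sample, fewer cells with a transcript and less of it per cell cannot be told apart.

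**Figure D1:**
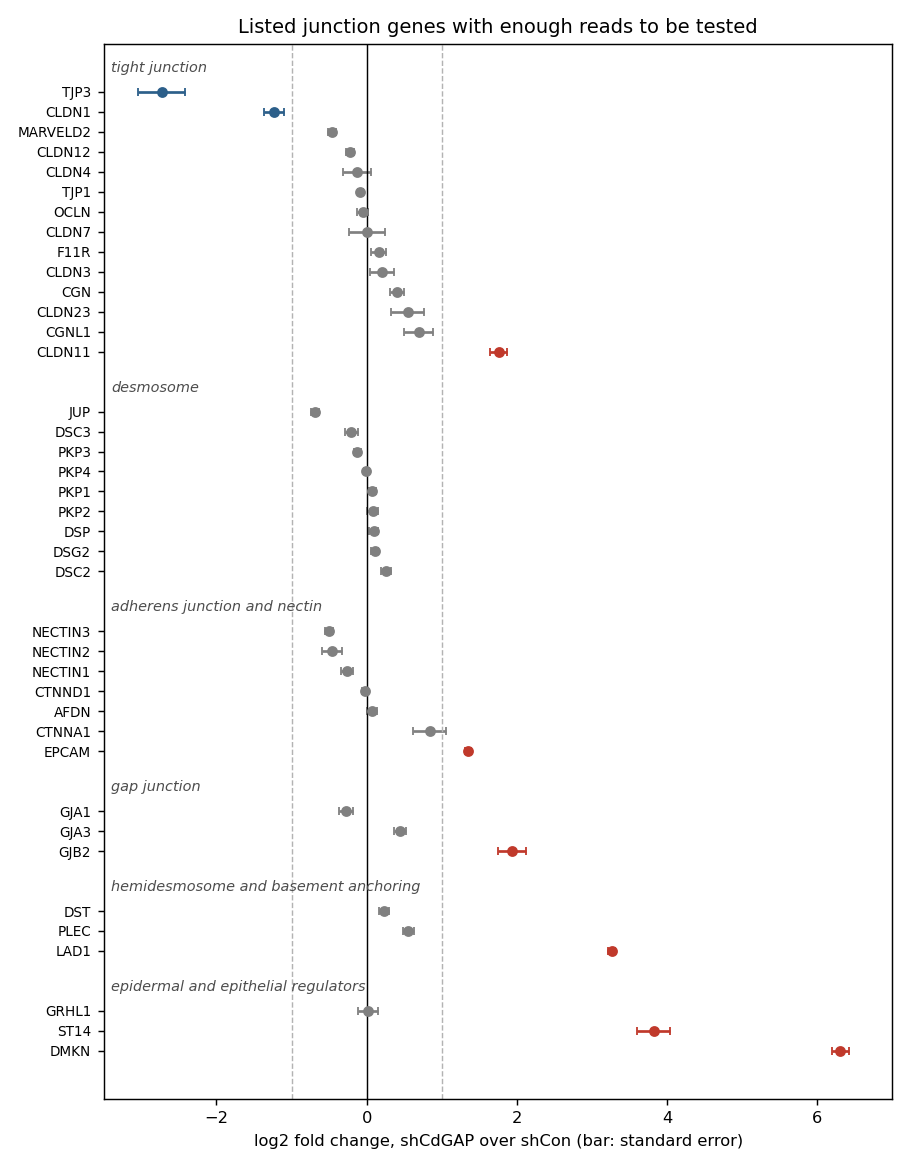
Log2 fold change (shCdGAP against shCon, horizontal axis) of the 39 tested genes, grouped by junction type, with bars of 1 SE. Red points are called higher, blue points called lower and grey points not called, and dashed lines stand at a log2 fold change of 1 in either direction. DMKN, ST14 and LAD1 lie farthest to the right, TJP3 and CLDN1 farthest to the left, and the desmosome genes lie between -0.69 and 0.26.

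Tight junction genes moved in both directions. Of 16 listed, 14 were tested, with a median log2 fold change of -0.02. CLDN11 and CGN rose, CLDN1, TJP3, MARVELD2 and CLDN12 fell, and 8 did not pass. Claudin-1, encoded by CLDN1 (chromosome 3, 190305701 to 190322475), is a barrier-forming claudin. In shCdGAP replicates 1, 2 and 3 it had 35.0, 23.4 and 31.8 CPM, against 71.9, 71.2 and 68.5 CPM in the shCon libraries. All shCdGAP libraries were below all shCon libraries, with replicate 2 the lowest, and the mean was 2.35-fold lower (30.05 ± 6.001 against 70.5 ± 1.80 CPM, SD, n = 3 each; log2 fold change -1.23, SE 0.134). With glmTreat, which tests against a log2 fold change of 1 rather than 0, CLDN1 was no longer called.

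ZO-3, a scaffold that binds claudins and occludin, is encoded by TJP3 (chromosome 19, 3708109 to 3750813). Its levels were 0.345, 1.29 and 0.815 CPM in shCdGAP and 5.55, 5.21 and 5.69 CPM in shCon. The groups did not overlap, but the shCdGAP libraries spread widely at this low level. TJP3 was 6.64-fold lower (log2 fold change -2.73, SE 0.315). TJP1, which encodes the related scaffold ZO-1, did not pass the test, with a log2 fold change of -0.09.

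Claudin-11, a claudin of myelin sheaths and of the seminiferous epithelium, showed the opposite change. CLDN11 (chromosome 3, 170418865 to 170860380) had 20.7, 26.8 and 20.8 CPM in shCdGAP replicates 1, 2 and 3 and 6.41, 6.80 and 7.02 CPM in shCon. Each depleted library exceeded every control library, and the rise was 3.38-fold (22.8 ± 3.50 against 6.74 ± 0.309 CPM, SD, n = 3 each; log2 fold change 1.76, SE 0.112).

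CLDN4, another claudin of epithelial barriers, had the highest level per gene length of the tight junction genes, at a mean of 37.8 CPM per kb in shCdGAP and 41.5 CPM per kb in shCon. Per library it had 153, 233 and 148 CPM in shCdGAP and 194, 196 and 194 CPM in shCon. Replicate 2 lay above the shCon libraries and replicates 1 and 3 below them, and the log2 fold change of -0.13 (SE 0.184) did not pass. CLDN7 showed the same arrangement, with 8.11, 14.8 and 7.94 CPM in shCdGAP and 9.68, 10.1 and 11.2 CPM in shCon. CLDN3 also had replicate 2 highest, at 22.4, 33.7 and 22.7 CPM in shCdGAP, where shCon libraries ranged from 22.6 to 23.2 CPM.

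The remaining changes among tight junction genes were small. MARVELD2, which encodes tricellulin, a protein of the points where 3 cells meet, had a log2 fold change of -0.46 (SE 0.0538). CLDN12 fell by 0.22 (SE 0.0526) and CGN, encoding the junctional adaptor cingulin, rose by 0.40 (SE 0.0917), both on the log2 scale. These changes of CLDN12 and CGN no longer passed under 6 and 5 of the 13 alternative settings. OCLN (occludin), F11R (the adhesion molecule JAM-A), CLDN23 and CGNL1 (paracingulin) did not pass, with log2 fold changes of -0.05, 0.16, 0.54 and 0.69. Reads mapping to several places were not counted, which could lower the counts of genes with similar sequence elsewhere. This was not tested.

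Desmosome genes had the narrowest range of change of the 6 groups. Of the 9 tested, none was called, JUP alone passed without the fold limit, and log2 fold changes ran from -0.69 to 0.26 with a median of 0.08. Over all tested genes 8.56% were called higher and 4.19% lower, and 24.1% and 22.0% passed higher and lower. Without shCdGAP replicate 2, 2 desmosome genes passed higher and 3 lower, beside 30.0% of all genes in each direction. JUP encodes plakoglobin, which is shared by desmosomes and adherens junctions. Its levels were 76.4, 87.1 and 78.3 CPM in shCdGAP and 131, 128 and 131 CPM in shCon, so that all shCdGAP libraries lay below all shCon libraries. The fall was 1.61-fold (log2 fold change -0.69, SE 0.0518). PKP1, encoding plakophilin-1, had the highest level per length of this group, at 92.0 CPM per kb in shCdGAP and 87.2 in shCon. Its libraries held 587, 540.4 and 586 CPM in shCdGAP and 535, 555 and 534 CPM in shCon, and the groups overlapped (log2 fold change 0.08, SE 0.0421). DSC2 (desmocollin-2) and DSC3 (desmocollin-3) had log2 fold changes of 0.26 and -0.20, and shCdGAP replicate 2 was the lowest of its group in both. DSG2, DSP, PKP2, PKP3 and PKP4 ranged from -0.12 to 0.11.

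**Figure D2:**
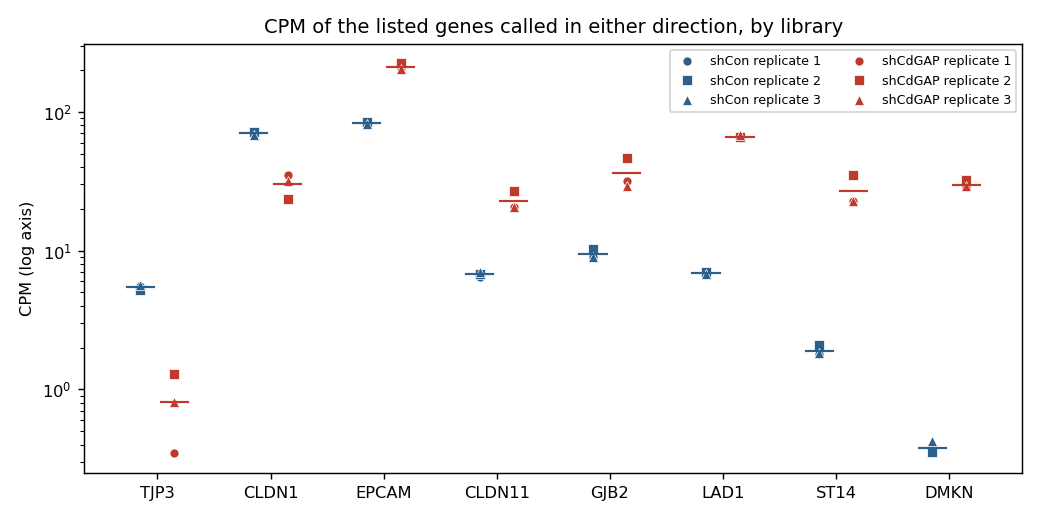
Level of the 8 called genes in each library (CPM, log axis), with shCon in blue and shCdGAP in red. Circles, squares and triangles are replicates 1, 2 and 3 and the line is the mean of the group. In every panel the 3 shCdGAP libraries lie on 1 side of the 3 shCon libraries, above them for 6 genes and below them for CLDN1 and TJP3.

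All 7 adherens junction and nectin genes were tested, with a median log2 fold change of -0.02. EPCAM and CTNNA1 rose, NECTIN3 fell and 4 did not pass. EPCAM (chromosome 2, 47345158 to 47387601) encodes an epithelial adhesion molecule that also stabilises claudins. It had 208, 223 and 203 CPM in shCdGAP and 83.0, 84.4 and 81.7 CPM in shCon. Libraries were tight within each group and far apart between groups, with a 2.55-fold rise (212 ± 10.6 against 83.0 ± 1.35 CPM, SD, n = 3 each; log2 fold change 1.35, SE 0.0436). Per length, EPCAM had 32.96 CPM per kb in shCon, close to the 33.2 of CTNND1, and 84.0 in shCdGAP, where CTNND1 had 32.6.

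CTNND1 encodes p120-catenin, which holds cadherins at the cell surface. Its libraries had 284, 299.9 and 281 CPM in shCdGAP and 296, 293 and 290 CPM in shCon. They overlapped, and the log2 fold change was -0.02. NECTIN3, an adhesion receptor of the nectin family, had 23.4, 24.5 and 25.9 CPM in shCdGAP and 35.7, 35.6 and 33.3 CPM in shCon, without overlap (log2 fold change -0.50, SE 0.0553). NECTIN1 and NECTIN2 had log2 fold changes of -0.26 and -0.46 and did not pass. AFDN, whose product afadin links nectins to actin, had 0.07.

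CTNNA1 encodes alpha-catenin, the link from cadherin complexes to actin, which PC-3 cells are known to lack. Only 62, 63 and 38 reads were counted in the shCdGAP libraries and 25, 33 and 31 in shCon, equal to 0.154 and 0.0874 CPM per kb. The log2 fold change of 0.84 (SE 0.221) passed in the fit used here and was lost under 7 of the 13 alternative settings. A processed copy of this gene exists elsewhere in the genome.

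Gap junction genes differed from one another. Of 4 listed, GJB2 and GJA3 rose, GJA1 did not pass and GJB5, with 0 to 6 reads per library, could not be tested. GJB2 (chromosome 13, 20187470 to 20192898), encoding connexin 26, had 31.7, 46.8 and 29.5 CPM in shCdGAP and 9.01, 10.3 and 8.93 CPM in shCon. All shCdGAP libraries were higher, replicate 2 most of all, and the mean was 3.82-fold higher (36.0 ± 9.46 against 9.42 ± 0.787 CPM, SD, n = 3 each; log2 fold change 1.93, SE 0.192). Connexin 46 is encoded by the nearby GJA3 (chromosome 13, 20138255 to 20161049), with 9.002, 9.78 and 9.17 CPM in shCdGAP and 6.96, 6.63 and 6.96 CPM in shCon. Those groups did not overlap either, though the difference was smaller (log2 fold change 0.44, SE 0.0784). The 34 other tested genes within 5 Mb had a median log2 fold change of -0.25.

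GJA1 encodes connexin 43, the most widely expressed connexin, and had the highest level per length of all listed genes, at 171 CPM per kb in shCdGAP and 206 in shCon. Per library it had 492, 606 and 461 CPM in shCdGAP and 616, 626 and 638 CPM in shCon. Replicate 2 lay just under the shCon libraries and the other two further below, and the log2 fold change of -0.27 (SE 0.0932) did not pass.

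Hemidesmosome and basement anchoring genes were higher in shCdGAP in all 3 members, with no overlap of groups, and 2 of them passed. Over all tested genes, 34.4% were higher without overlap and 24.1% passed higher. LAD1 (chromosome 1, 201373244 to 201399608) encodes ladinin-1, an anchoring filament protein of the basement membrane. It had 65.4, 65.4 and 67.8 CPM in shCdGAP and 6.89, 6.97 and 6.81 CPM in shCon. The spread within either group was small against a rise of 9.60-fold (66.2 ± 1.36 against 6.89 ± 0.0780 CPM, SD, n = 3 each; log2 fold change 3.26, SE 0.0479). PLEC, encoding plectin, the large linker between hemidesmosomes and intermediate filaments, had 847, 692 and 814 CPM in shCdGAP and 559.5, 536 and 509 CPM in shCon. It rose 1.47-fold (log2 fold change 0.55, SE 0.0739), and at 46.2 CPM per kb in shCdGAP and 31.5 in shCon it had the highest level per length of the 3. DST, encoding the related linker dystonin, had 138, 138 and 133 CPM in shCdGAP and 119, 126 and 103 CPM in shCon, and its log2 fold change of 0.23 did not pass.

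**Figure D3:**
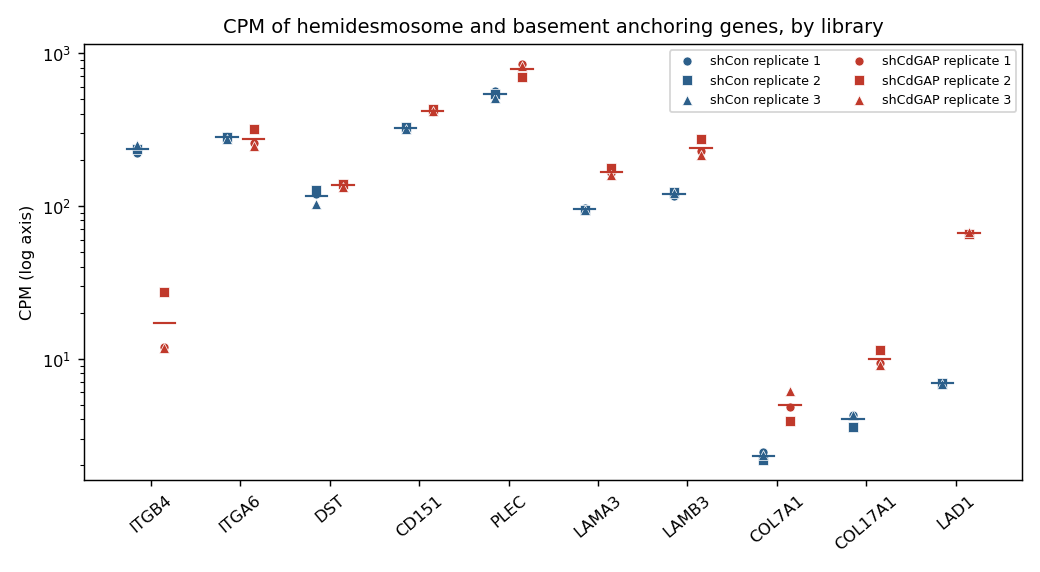
Level of LAD1, PLEC and DST and of 7 hemidesmosome genes outside the list in each library (CPM, log axis), with shCon in blue and shCdGAP in red, circles, squares and triangles for replicates 1, 2 and 3 and a line at the group mean. LAD1 lies higher in all shCdGAP libraries, whereas ITGB4 lies at 11.7 to 27.4 CPM in shCdGAP and 222 to 249.6 CPM in shCon.

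Among 6 epidermal genes and epithelial regulators, 3 were tested and 2 of these rose. ST14 (chromosome 11, 130159562 to 130210376) encodes matriptase, a membrane serine protease of epithelia. Its levels were 22.9, 35.1 and 22.7 CPM in shCdGAP and 1.79, 2.09 and 1.82 CPM in shCon. The lowest shCdGAP library was far above the highest shCon library, and the mean was 14.1-fold higher (26.9 ± 7.09 against 1.90 ± 0.164 CPM, SD, n = 3 each; log2 fold change 3.82, SE 0.217). DMKN (chromosome 19, 35497220 to 35513658) encodes dermokine, a secreted protein of the differentiating epidermis. It had 1157, 1402 and 1000 reads in shCdGAP and 15, 15 and 14 reads in shCon, or 28.5, 32.2 and 29.1 CPM against 0.358, 0.355 and 0.424 CPM. This was the largest change among the tested genes of the list, 79.1-fold higher in shCdGAP (log2 fold change 6.30, SE 0.110).

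Transcription factors in the list were low or not detected. GRHL1, a grainyhead-like factor, had 68 to 96 reads per library and a log2 fold change of 0.02. GRHL2 had at most 4 reads in any library, OVOL2 at most 7 and OVOL1 none. The other genes that could not be tested were CLDN2, MARVELD3, GJB5 and DSG3, with 0 to 6 reads per library, and no read of DSG3 was counted.

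**Figure D4:**
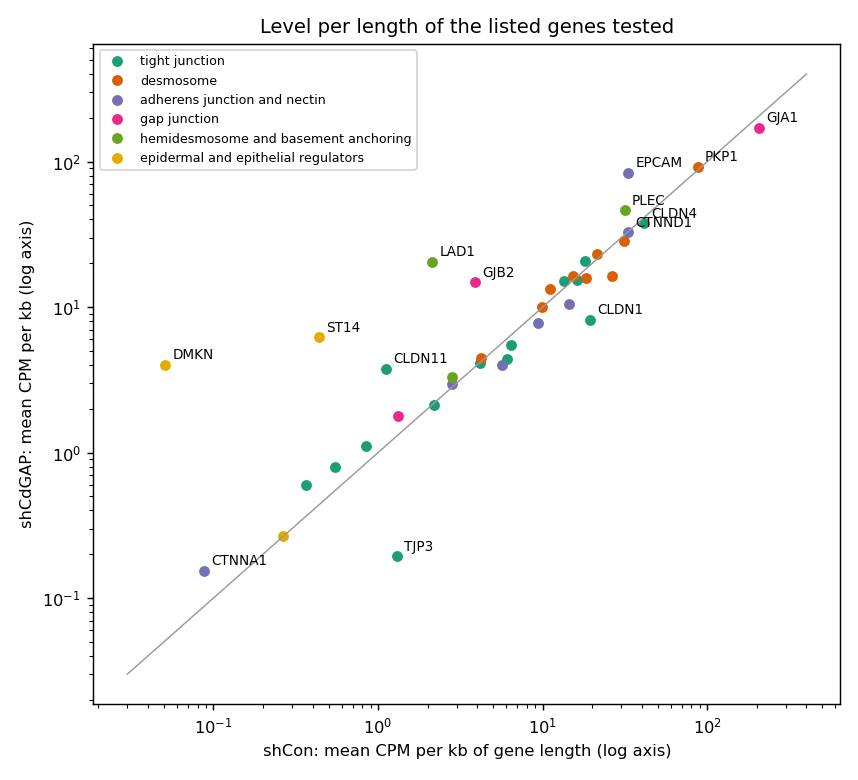
Mean level per gene length (CPM per kb, log axes) of the 39 tested genes in shCon (horizontal) and shCdGAP (vertical), with a colour for each junction type and a line where both are equal. GJA1 has the highest level, at 206 CPM per kb in shCon and 171 in shCdGAP, DMKN, ST14 and LAD1 lie farthest above the line, and TJP3 lies farthest below it.

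Among the shCdGAP libraries 1 differed from the others more often. shCdGAP replicate 2 was the highest of its group in 24 of the 39 tested genes (61.5%, against 41.4% of all genes), the lowest in 8 and between the others in 7. It departed from the mean of replicates 1 and 3 by more than 0.3 on the log2 scale in 14 genes, or 35.9%, against 23.4% of all genes. The same departure was seen in 6 genes for replicate 1 (15.4%, against 12.7% of all genes) and 8 for replicate 3 (20.5%, against 15.3%). For shCon libraries it was seen in at most 1 listed gene each, against 10.3% to 12.1% of all genes. All 3 tested gap junction genes and all 3 tested epidermal and regulator genes had replicate 2 highest. None of the 3 listed hemidesmosome genes did, whereas 7 of 8 other hemidesmosome genes did. Its library held 43154039 counted reads, the most of all.

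Without that library 13 listed genes passed higher and 13 lower, while 30.0% of all genes passed higher and 30.0% lower. All genes that passed in the full data still passed. CGNL1, DSC2 and PKP1 were the 3 added higher, and CLDN4, CLDN7, DSC3, PKP3, NECTIN1, NECTIN2 and GJA1 the 7 added lower. Without it CLDN7 had a log2 fold change of -0.37, where the full data gave 0.00. The 8 called genes stayed called, with log2 fold changes of -1.09 for CLDN1, -3.29 for TJP3, 1.61 for CLDN11, 1.30 for EPCAM, 1.69 for GJB2, 3.26 for LAD1, 3.57 for ST14 and 6.24 for DMKN.

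**Figure D5:**
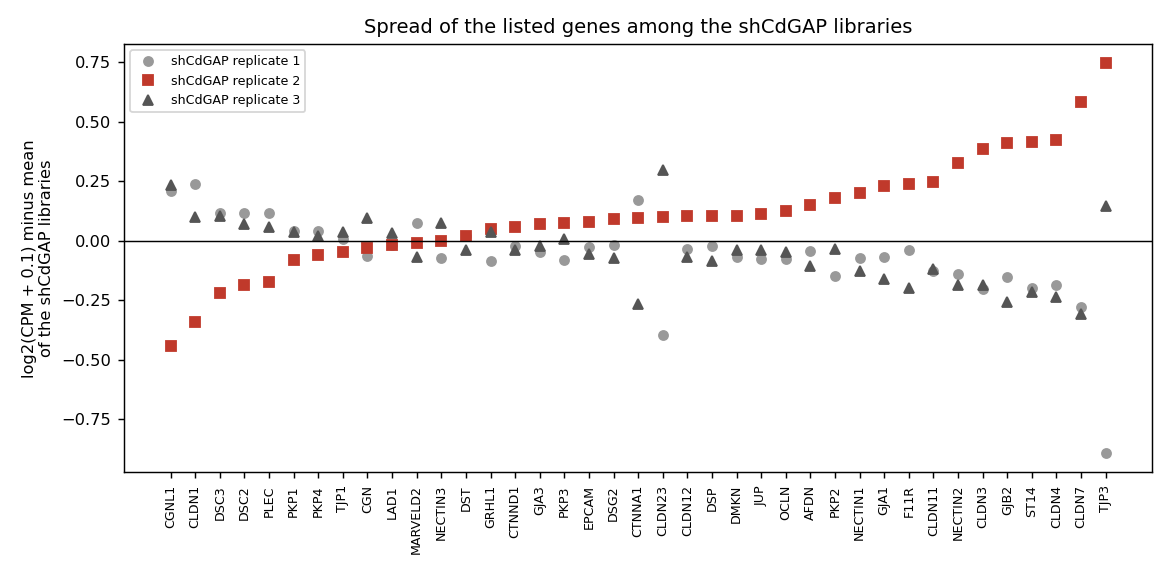
Level of the 39 tested genes in each shCdGAP library, as log2(CPM + 0.1) minus the mean of the 3 shCdGAP libraries (vertical axis), ordered by the departure of replicate 2 from replicates 1 and 3. Red squares are replicate 2, light grey circles replicate 1 and dark triangles replicate 3. CGNL1 and CLDN1 have replicate 2 lowest, at the left, and CLDN4, CLDN7 and TJP3 have it highest, at the right, 0.64, 0.88 and 1.12 above the mean of the others.

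To set the listed genes beside the rest of their pathways, 89 further junction genes in 6 lists were examined, of which 56 were tested. Of these, 20 passed higher and 10 lower, beside 24.1% and 22.0% of all tested genes. Of the 56, 7 were called higher (among them JAM3, PANX2, COL17A1, COL7A1, TP63 and SNAI1) and 4 lower (CLDN10, CTNND2, ITGB4 and KLF5), beside 8.56% and 4.19% of all tested genes. These lists too were drawn up with results of these data known, so their values are given as a description. Among 18 other tight junction genes 3 passed higher and 4 lower. JAM3, encoding the junctional adhesion molecule JAM-C, had 17.8, 19.9 and 14.5 CPM in shCdGAP and 0.262, 0.284 and 0.272 CPM in shCon. Its level was 63.1-fold higher without overlap (log2 fold change 5.98, SE 0.184). CLDN10 had 0, 5 and 0 reads in shCdGAP and 11, 13 and 12 in shCon, too few to rest a size on. Around CLDN10 on chromosome 13, the median log2 fold change was -1.70 over the 26 other tested genes within 5 Mb.

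Of 3 other desmosome genes, PPL (periplakin) and PERP rose, with log2 fold changes of 0.96 and 0.35, and EVPL (envoplakin) fell by 0.52. Among 9 other adherens junction genes, 3 passed higher and 1 lower. CTNNB1 (beta-catenin) and VCL (vinculin) rose, with log2 fold changes of 0.48 and 0.62. CTNND2, encoding delta-catenin, had no read in any shCdGAP library and 22, 26 and 13 reads in shCon. Set against a floor of 3 reads per library, it was at least 6.66-fold lower. CDH1, encoding E-cadherin, had 29.6, 50.5 and 25.4 CPM in shCdGAP and 56.6, 58.4 and 59.8 CPM in shCon. Its groups did not overlap, but the log2 fold change of -0.72 (SE 0.265) did not pass. Without shCdGAP replicate 2 the log2 fold change of CDH1 was -1.09, and it passed lower.

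Of 19 gap junction and pannexin genes outside the list 14 could not be tested, and of the 5 tested 4 passed higher and 1 lower. PANX2, a pannexin channel, was higher by 2.31 on the log2 scale (SE 0.0905) and PANX1 by 0.79. GJC1, encoding connexin 45, fell by 0.43 on the log2 scale.

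Hemidesmosome genes outside the list moved both ways. Of 8 tested, 6 passed higher, COL17A1, COL7A1, LAMB3, LAMA3 and CD151 among them, and ITGB4 fell, while ITGA6 did not pass (log2 fold change -0.04). Collagen XVII is a transmembrane protein of hemidesmosomes, and COL17A1 had 9.42, 11.4 and 9.05 CPM in shCdGAP and 4.29, 3.58 and 4.30 CPM in shCon (log2 fold change 1.30, SE 0.122). LAMA3 and LAMB3 encode laminin chains of the basement membrane and had log2 fold changes of 0.81 and 0.99. ITGB4 encodes integrin beta 4, the signalling and anchoring subunit of the hemidesmosomal receptor. It had 11.9, 27.4 and 11.7 CPM in shCdGAP and 222, 235 and 249.6 CPM in shCon, 13.7-fold lower (log2 fold change -3.78, SE 0.378). In every shCdGAP library ITGB4 was below, and LAD1 above, all shCon libraries.

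Of 13 other epithelial regulators 2 passed higher and 2 lower. TP63, encoding the basal epithelial factor p63, and SNAI1, a repressor of epithelial genes, rose with log2 fold changes of 1.04 and 1.13. KLF5, an epithelial Krüppel-like factor, fell by 1.73 (SE 0.0352) and ELF3, an epithelial ETS factor, by 0.99 on the log2 scale. The 18 other tested genes within 5 Mb of KLF5, also on chromosome 13, had a median log2 fold change of -1.58, close to the change of KLF5 itself. ZEB1 and ZEB2, repressors that bind E-boxes, did not pass, with log2 fold changes of -0.09 and 0.19.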

How the data were processed

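RNA was measured in 6 libraries of PC-3 cells, 3 shCdGAP and 3 shCon, which the methods describe as independent samples. The authors deposited raw counts per gene: reads were checked with FastQC 0.11.5, aligned to GRCh38 with STAR 2.5.1b and counted with featureCounts (1.6.0 in the file headers, 1.4.6 in the notes) against Ensembl release 77. Per the file headers, properly paired fragments were counted by strand, whereas the methods name a single-read kit, and reads mapping to several places were not counted.

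From these counts, genes were filtered with filterByExpr, scaled by TMM and tested with edgeR 4.0.16 (R 4.3.3, limma 3.58.1; quasi-likelihood F test, robust) with Benjamini-Hochberg adjustment over 16439 genes. Genes were called when the adjusted p was below 0.01 and the log2 fold change was beyond 1 in either direction. CPM used TMM-scaled library sizes, the SE is that of the log2 fold change, and level per length is CPM per kb of gene length in the files. DESeq2 1.42.0, which the study itself used in version 1.12.3, was an alternative. The fit was tested on simulated data. Lists of members and other genes were chosen with earlier results of these data known. Values in every library were given for called listed genes and the gene of each type with the highest level per length, with further listed genes added after their values were seen. Of the other lists, called genes and CDH1 were chosen by rule, and genes passing without the fold limit were named after their values were seen. Promoter windows came from RefSeq (GRCh38.p14), in which 32 of the 46 genes matched and 14 did not. Alternatives were other scalings, other low-count filters, DESeq2, glmTreat, a replicate block and leaving out each library. Intervals of counts and floors cover counting error only. A few genes of the other lists and marker lists are not reported here.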

Additional observations from a re-analysis of the deposited data

How the results depend on the processing

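The 8 called listed genes kept direction and threshold under DESeq2, the other scalings and filters, the replicate block and the removal of each library; with glmTreat against a log2 fold change of 1, 1 listed gene was called lower, TJP3, and CLDN1 was not. Under glmTreat, over all genes 658 were called higher and 340 lower, and 2 of the other junction genes were called higher. Without the low-count filter 10 listed genes passed lower and 11 other junction genes were called higher, and the median log2 fold change was 1.19 for gap junction genes and 0.025 for epidermal genes and regulators. The desmosome median was 0.10 with library size as the sole scaling. Leaving out each library in turn, listed genes passing lower numbered 5 to 13, other junction genes called lower 3 to 8 and passing lower 9 to 20, and the desmosome median ran from 0.017 to 0.068. The upper ends of the 3 counts, and CLDN7 at a log2 fold change of -0.37 (up to 0.15 without other libraries), came without shCdGAP replicate 2. The cause was not tested. Same-numbered libraries correlated weakly in their deviations (0.03, 0.05 and 0.05, each the highest for its library), which does not settle whether they are pairs. Neither the labels nor the methods name pairs, and the main fit used none. With the replicate block 6 listed genes were called higher and 2 lower, and 10 passed higher and 8 lower. At 33182796 to 43154039 counted reads per library, the 7 untested listed genes, with at most 7 reads in any library, could not be compared.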
